A study of Mus musculus with 8 samples.

Results

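The 40 genes described here are induced quickly by neuronal activity or by the taking apart of tissue, and are listed by name as immediate early and dissociation stress genes. The list uses no threshold on measured values, but it was drawn up with earlier results of these data known. All 40 were found among the 35968 genes to which transcripts could be matched, and 39 of them were among the 15194 genes that passed the filter on low counts. The remaining member, *Fosl1*, had 0 to 18 counts per mouse. The libraries came from 4 female and 4 male *Sst-Cre* mice, heterozygous for Cre at the *Sst* locus (Ssttm2.1(cre)Zjh), all injected with AAV2-flex-tdTomato into the tuberal nucleus (TN) as adults. Their exact ages were not given in the sources used here. The TN was dissected and digested with papain, live nucleated cells with high red fluorescence were sorted, and RNA from each mouse gave 1 bulk library (Flow-Seq). Red fluorescence requires that a cell took up the virus and had Cre made from the *Sst* locus. There was no library of unsorted or undigested tissue in the comparison, so levels before dissociation cannot be told apart from levels after it.

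Immediate early genes are transcribed within minutes of a stimulus from factors that are already present in the cell. Calcium and growth factor signals reach them through CREB, which binds the cAMP response element (CRE), and through serum response factor with its ELK partners, which bind the CArG box, while heat and protein damage reach the chaperone genes through HSF1 at heat shock elements. In neurons they are used as marks of recent activity, and in sorted cells the same genes are known to rise during warm enzymatic digestion, in microglia as well as in neurons.

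Promoter sequences are shown for 4 members that the results or the roles turn on: *Tiparp*, the member called between the sexes, *Fos*, an AP-1 factor and a common mark of activity, *Btg2*, which was higher in every male and holds a full CRE, and *Hspa1a*, an inducible chaperone. Each run is the strand of the gene, 5′ to 3′, upstream of the annotated gene start, from RefSeq on GRCm38.p6 (the mm10 build), and capitals mark the motifs of a first search of 8. The *Tiparp* run stops at the GENCODE start of the gene and so shows 213 of the 250 bases searched.

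Tiparp, chr3:65528197-65528409, + strand: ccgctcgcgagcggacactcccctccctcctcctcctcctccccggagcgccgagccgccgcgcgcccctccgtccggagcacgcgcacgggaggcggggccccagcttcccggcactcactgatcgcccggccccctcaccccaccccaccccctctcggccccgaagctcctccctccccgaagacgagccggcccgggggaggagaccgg

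Fos, chr12:85473640-85473889, + strand: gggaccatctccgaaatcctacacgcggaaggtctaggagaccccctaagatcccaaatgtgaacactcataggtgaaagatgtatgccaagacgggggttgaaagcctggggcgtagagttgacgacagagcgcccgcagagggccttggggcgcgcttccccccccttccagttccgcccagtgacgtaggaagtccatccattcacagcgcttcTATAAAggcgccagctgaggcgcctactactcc

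Btg2, chr1:134079156-134079405, - strand: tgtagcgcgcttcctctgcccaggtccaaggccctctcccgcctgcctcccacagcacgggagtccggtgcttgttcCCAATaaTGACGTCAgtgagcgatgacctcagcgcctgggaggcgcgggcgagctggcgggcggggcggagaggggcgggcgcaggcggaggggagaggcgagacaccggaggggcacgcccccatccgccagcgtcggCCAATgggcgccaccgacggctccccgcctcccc

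Hspa1a, chr17:34972157-34972406, - strand: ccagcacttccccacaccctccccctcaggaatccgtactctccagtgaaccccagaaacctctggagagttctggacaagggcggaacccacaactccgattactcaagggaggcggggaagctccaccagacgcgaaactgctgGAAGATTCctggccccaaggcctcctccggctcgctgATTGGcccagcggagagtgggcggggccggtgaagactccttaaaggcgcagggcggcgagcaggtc

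In *Fos* the capitals are a TATA box (TATAAA). In *Btg2* they are a CRE (TGACGTCA) between a pair of CCAAT boxes, and in *Hspa1a* a short heat shock element (GAANNTTC) followed by a CCAAT box on the other strand. In *Tiparp* none of the 8 motifs was found. The search took the 250 bases before the RefSeq start, on both strands, in the 32 members with a promoter entry and in all 27025 genes with one. A CRE stood in 3 of 32 members (*Btg2*, *Dusp1*, *Maff*), 9.38% against 1.77% of all genes. A CArG box stood in 2 (*Dusp5*, *Egr2*), 6.25% against 1.62%. A short heat shock element stood in 6, 18.8% against 7.73%, among them the chaperone genes *Hspa1a*, *Hspa1b* and *Hspb1*, while a longer heat shock element, the short one with a GAA unit added, stood in 0 against 0.514% of all genes. The xenobiotic response element (TNGCGTG) stood in 2 members (*Klf6*, *Ptgs2*), 6.25% against 4.76%, the AP-1 site (TGACTCA) in 1 (*Csrnp1*), 3.12% against 5.16%, the TATA box in 4, 12.5% against 14.3%, and the CCAAT box in 13, 40.6% against 37.5%. After these sequences had been read, 2 shorter strings were added to the search, so their counts are not independent of that reading. A shortened CRE (TGACGT, which the full CRE contains) stood in 11 of 32 members, 34.4% against 7.29%, and the core of the xenobiotic element (GCGTG, contained in TNGCGTG) in 18, 56.2% against 30.9%. These 2 strings are not in capitals above: *Fos* and *Btg2* hold both, and *Tiparp* holds the core. These are matches of letters in a window and were not measured as binding.

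The members were well expressed in the sorted cells. Compared per length, as transcripts-per-million values (TPM), *Hspa8*, the constitutive heat shock cognate chaperone, was the highest at a mean of 3326 TPM over the 8 mice. It was followed by *Fos* at 862, *Fosb* at 329, *Jun* at 317, *Egr1* at 273 and *Junb* at 232 TPM. Of *Hspa8* the most abundant transcript shares 89.5% of its 31-base stretches with other genes, so its level is uncertain, as are those of *Hspa1a* (70.1% shared, mostly with *Hspa1b*), *Hspa1b* (68.1%) and *Hspb1* (65.4%). The TPM of *Fos* is also uncertain, since 33.2% of it fell on protein-coding transcripts and the rest on shorter annotated forms. The same share was 31.2% for *Atf3*, 24.3% for *Nr4a3* and 15% for *Npas4*. At the low end of the 39 tested members were *Hspb1* at 7.22 TPM and *Nr4a2* at 10.3 TPM. Neighbours in this order overlapped in their ranges over mice from *Fosb* downward.

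**Figure D1:**
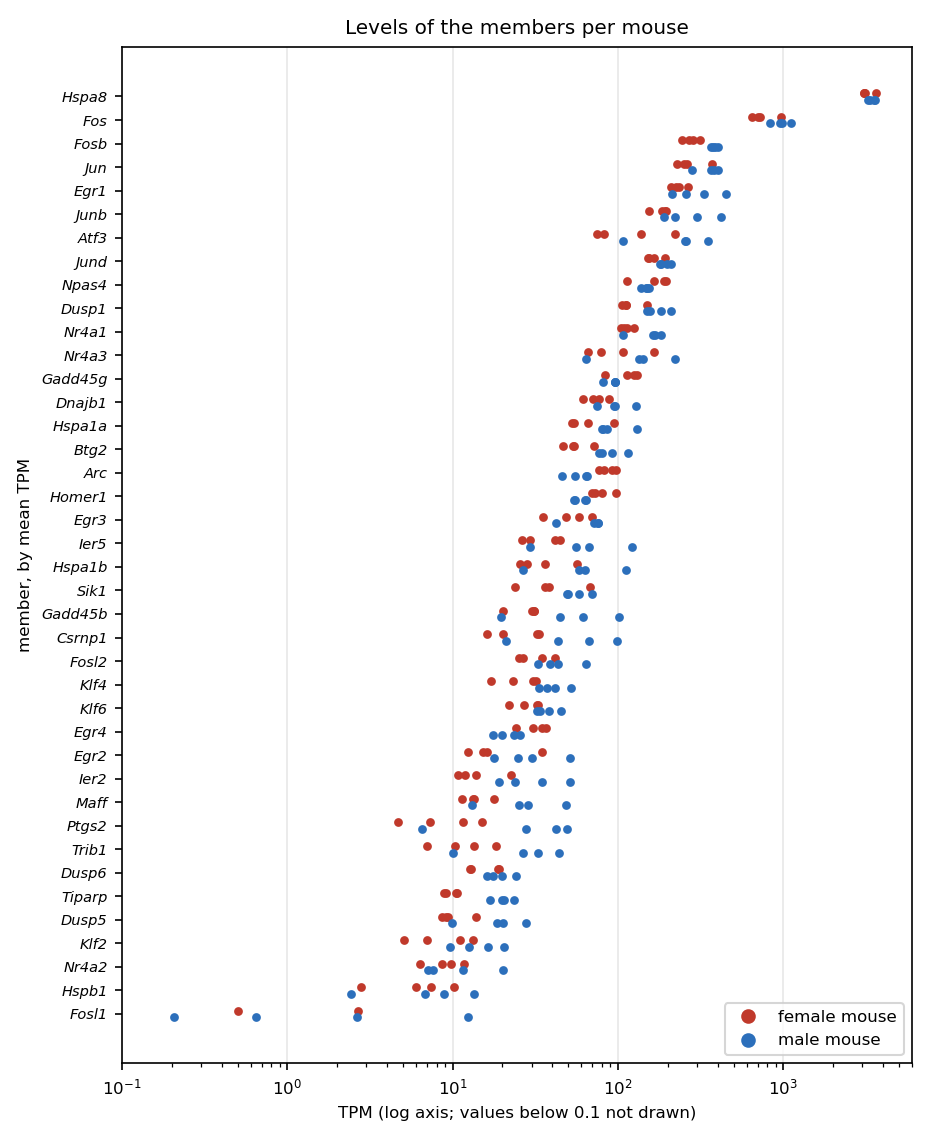
TPM of each member in each mouse on a log axis, females in red and males in blue, with members ordered by their mean. *Hspa8* and *Fos* stand above the others, with means of 3326 and 862 TPM, and most members lie between 10 and 400 TPM with the male points to the right.

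Most members had higher means in males. Of the 39 tested, 34 had a fold change below 0, female against male, where 50.6% of all genes tested did. The median log2 fold change was -0.60 over the members and -0.00434 over all genes. By edgeR's quasi-likelihood test, adjusted over all genes after Benjamini and Hochberg, 1 member was called, *Tiparp*, where 0.158% of all genes were called in either direction and 0.0461% as higher in males. At an unadjusted p under 0.05 there were 25 members higher in males and 2 higher in females (*Arc* and *Egr4*), against 10.7% and 9.86% of all genes. DESeq2's Wald test, the tool the study names, called 13 members higher in males and 1 higher in females, against 3.48% and 4.38% of all genes with an adjusted p. In 6 members every male lay above every female and in 1 every female above every male, against 3.94% and 6.48% of all genes. The members were measured in the same 8 mice, so these counts are not counts of separate events. Since the libraries are bulk, fewer cells of a type and less RNA per cell cannot be told apart.

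The mice differed within each sex, and markers of other cell types differed with them. Male 4 was the highest mouse for 26 of 39 members and female 3 the lowest for 22. The members together took 0.631% to 0.689% of the counts in females and 0.806% to 0.929% in males. All 6 microglia markers had lower means in females, with log2 fold changes of -1.57 to -1.11, though edgeR called none of them after adjustment, 4 had an unadjusted p under 0.05, DESeq2 called 0 and the sexes overlapped in each. Their summed level, in counts-per-million values (CPM), was 188 to 1103 in females and 438 to 2102 in males, and none was at 0 in any mouse. All 8 neuron markers had higher means in females (summed 2501 to 3248 CPM against 1941 to 2581 CPM), with 0 called by edgeR, 3 at an unadjusted p under 0.05 and 3 by DESeq2. In 3 of the 8 every female was above every male. Of all genes, 9.86% were higher in females at that unadjusted p, 4.38% by DESeq2 and 6.48% in every female. The 5 astrocyte and 4 oligodendrocyte markers had lower means in females and the 4 endothelial markers were mixed, with 0 called by edgeR or DESeq2 and 1 astrocyte and 1 oligodendrocyte marker at an unadjusted p under 0.05 in edgeR. *Sst* itself, which marks the sorted cells, had 420 ± 100 CPM on average in females against 335 ± 38.2 in males (SD, n = 4 each).

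**Figure D2:**
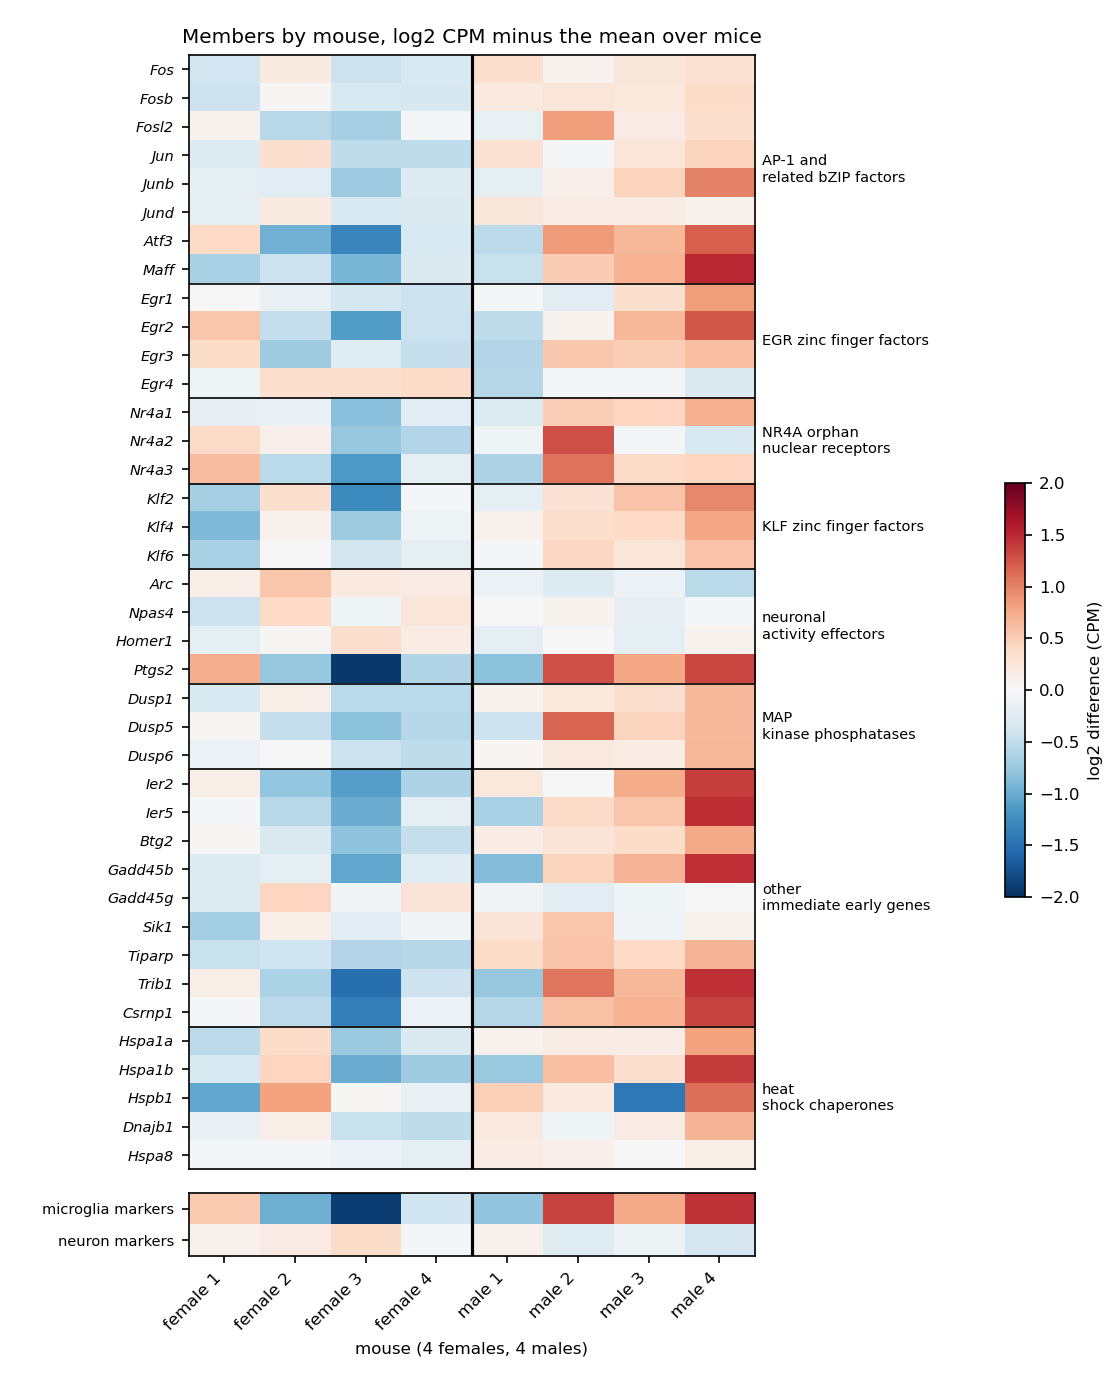
Log2 CPM of the 39 tested members in each mouse, minus the mean over the 8 mice, grouped by role, with the means of the microglia and neuron markers below on the same colour scale. Male 4 is highest for 26 members and female 3 lowest for 22, and these mice are also the highest and the lowest for the microglia markers.

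*Tiparp*, an ADP-ribosyltransferase that is induced by the aryl hydrocarbon receptor and limits it, was the member called by edgeR. The gene spans bases 65528410 to 65555518 of chromosome 3 (mm10, + strand). Its levels were 22.0, 22.8, 19.9 and 20.2 CPM across females 1 to 4 and 39, 44.6, 39.7 and 48.6 across males 1 to 4, from 149 to 487 counts per mouse. The lowest male thus stood well above the highest female, and the females differed little among themselves. The log2 fold change stood at -1.02 (standard error, SE, 0.109, with adjusted p = 0.00825 by edgeR). With the microglia marker mean as a covariate it was -0.91 (adjusted p = 0.0387 from edgeR). *Tiparp* missed the threshold without female 4, with the neuron marker mean, with both means and with the replicate number as a block (adjusted p = 0.0513, 0.145, 0.0834 and 0.115 from edgeR). Of 6 other genes of the aryl hydrocarbon receptor pathway, 3 had enough counts to be tested (*Ahr*, *Arnt* and *Ahrr*), with log2 fold changes of -0.51, -0.25 and 0.30, and 0 were called by edgeR or had an unadjusted p under 0.05. The enzyme genes *Cyp1a1*, *Cyp1b1* and *Nqo1* had means below 1 CPM in both sexes.

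The AP-1 factors and their relatives pair as leucine zipper dimers and bind the AP-1 site. All 8 that were tested had lower means in females and an unadjusted p under 0.05, 0 were called by edgeR after adjustment, and DESeq2 called 4 (*Fos*, *Fosb*, *Junb* and *Maff*). Of all genes 50.6% had lower means in females and 10.7% were higher in males at an unadjusted p under 0.05 in edgeR. DESeq2 called 3.48% of all genes as higher in males. *Fos*, the founding member, had 368, 539, 354 and 389 CPM across females 1 to 4 and 603, 503, 557 and 586 across males 1 to 4. Female 2 lay within the male range and the other females below it. Its log2 fold change came to -0.45 (SE 0.134, with adjusted p = 0.136 by edgeR and 0.0207 by DESeq2).

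*Fosb*, whose protein accumulates after repeated stimulation in a truncated form, had 287, 391, 310 and 307 CPM across females 1 to 4 and 440, 452, 446 and 496 across males 1 to 4. Every male was above every female and the males spanned a narrow range. The log2 fold change was -0.50 (SE 0.102, with adjusted p = 0.0798 by edgeR and 0.000413 by DESeq2), and -0.52 with the microglia marker mean as covariate. *Maff*, a small MAF protein without an activation domain, had 11.3, 13.3, 9.37 and 14.6 CPM across females 1 to 4 and 13.1, 25.6, 29.1 and 51.4 across males 1 to 4, with male 1 among the females (log2 fold change -1.30, SE 0.357, with adjusted p = 0.120 by edgeR and 0.00690 by DESeq2). *Junb*, an AP-1 partner that often restrains JUN, had 186, 182, 127 and 176 CPM across females 1 to 4 and 184, 224, 287 and 419 across males 1 to 4, with male 1 just under the highest female (log2 fold change -0.73, SE 0.237, with adjusted p = 0.157 by edgeR and 0.0216 by DESeq2). *Jun*, *Jund*, *Fosl2* and the stress factor *Atf3* had log2 fold changes of -0.44, -0.29, -0.60 and -1.07.

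Among the transcription factor groups the EGR zinc finger factors had fold changes of both signs. *Egr1*, the most abundant of them and a common activity mark, had 471, 421, 364 and 350 CPM across females 1 to 4 and 456, 399, 584 and 836 across males 1 to 4, with male 4 far above the others (log2 fold change -0.50, adjusted p = 0.231 from edgeR). *Egr2* and *Egr3* had log2 fold changes of -0.76 and -0.54, and *Egr4* went the other way at 0.47 (adjusted p = 0.159 from edgeR). The orphan nuclear receptors of the NR4A family, which act without a known ligand, had log2 fold changes of -0.70 for *Nr4a1*, -0.53 for *Nr4a2* and -0.62 for *Nr4a3*. Only *Nr4a1* of these 3 was called by DESeq2 (adjusted p = 0.0184, against 0.142 from edgeR, whose SE was 0.215). It had 134, 136, 83.9 and 127 CPM across females 1 to 4 and 124, 210, 200 and 244 across males 1 to 4, so that male 1 fell among the females.

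Of the KLF factors, *Klf4*, known from reprogramming and from vessel walls, had 28.4, 55.7, 32.0 and 49.3 CPM across females 1 to 4 and 55.8, 66.9, 69.1 and 90.1 across males 1 to 4. The sexes did not overlap but female 2 and male 1 nearly met (log2 fold change -0.77, SE 0.230, with adjusted p = 0.136 by edgeR and 0.0181 by DESeq2). *Klf6*, a relative that is also induced by injury, had 40.4, 63.4, 48.8 and 55.7 CPM across females 1 to 4 and 62.4, 84.6, 75.1 and 94.5 across males 1 to 4, with female 2 just above male 1 (log2 fold change -0.60, SE 0.163, with adjusted p = 0.116 by edgeR and 0.0133 by DESeq2). *Klf2*, a gene of quiescent endothelium and lymphocytes, had a log2 fold change of -0.78 (adjusted p = 0.260 from edgeR).

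Of the 4 genes grouped here as neuronal activity effectors, 3 had higher means in females. The activity marks *Fos* and *Egr1*, grouped above with the transcription factors, had lower means in females. *Arc*, whose product shapes AMPA receptor endocytosis at synapses, had 129, 174, 136 and 133 CPM across females 1 to 4 and 110, 99.3, 110 and 81.7 across males 1 to 4. Every female was above every male (log2 fold change 0.51, SE 0.125, with adjusted p = 0.0964 by edgeR and 0.00646 by DESeq2). *Npas4*, a transcription factor largely limited to neurons and induced by calcium entry, had 192, 343, 245 and 305 CPM across females 1 to 4 and lay between 232 and 272 CPM in the 4 males, a log2 fold change of 0.09 with a standard error of 0.159. *Homer1*, a scaffold of the postsynaptic density, had a log2 fold change of 0.17 (adjusted p = 0.442 from edgeR). *Ptgs2*, the inducible cyclooxygenase, was the exception at -1.22 (SE 0.583), with 4.59 to 29.9 CPM among females and 10.1 to 45.8 among males.

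The MAP kinase phosphatases, which switch off the kinases that induce these genes, had lower means in females in 3 of 3. *Dusp6*, which acts on ERK, had 21.2, 23.1, 17 and 16.1 CPM across females 1 to 4 and 23.7, 26.5, 25.6 and 36.8 across males 1 to 4, without overlap (log2 fold change -0.54, SE 0.177, with adjusted p = 0.157 by edgeR and 0.0667 by DESeq2). *Dusp1* had 106, 142, 90.4 and 90.2 CPM across females 1 to 4 and 138, 152, 164 and 204 across males 1 to 4, with female 2 just above male 1 (log2 fold change -0.62, SE 0.169, with adjusted p = 0.118 by edgeR and 0.00999 by DESeq2). *Dusp5*, a nuclear ERK phosphatase, had 18.5, 13.0, 10.1 and 12.1 CPM across females 1 to 4 and 13.5, 40.6, 24.6 and 28.5 across males 1 to 4, with male 1 among the females (log2 fold change -1.0, SE 0.315, with adjusted p = 0.149 by edgeR and 0.0294 by DESeq2).

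Among the other immediate early genes *Btg2*, an antiproliferative gene that promotes shortening of messenger RNA tails and the one shown above with a CRE, had 109, 88.1, 61.2 and 77.4 CPM across females 1 to 4 and 118, 129, 139 and 182 across males 1 to 4. The sexes did not overlap (log2 fold change -0.76, SE 0.186, with adjusted p = 0.0964 by edgeR and 0.00278 by DESeq2). *Ier2*, a short-lived nuclear protein, had 17.9, 9.47, 7.50 and 10.5 CPM across females 1 to 4 and 18.9, 16.3, 27.3 and 42.6 across males 1 to 4, with male 2 under female 1 (log2 fold change -1.21, SE 0.352, with adjusted p = 0.131 by edgeR and 0.0129 by DESeq2). *Csrnp1*, a nuclear protein, had 29.5, 21.1, 11.7 and 28.0 CPM across females 1 to 4 and 20.4, 45.6, 49.6 and 78.0 across males 1 to 4, with male 1 among the females (log2 fold change -1.10, SE 0.397, with adjusted p = 0.185 by edgeR and 0.0360 by DESeq2). *Trib1*, a pseudokinase that directs protein degradation, had the lowest fold change of all members at -1.31, with a standard error of 0.457 and overlapping sexes. *Ier5*, *Gadd45b* and the kinase gene *Sik1* had log2 fold changes of -1.03, -1.05 and -0.40, none called by either test. *Gadd45g*, a growth arrest and DNA damage gene and the most abundant of this group per length, had 43.4, 70.7, 50.6 and 62.9 CPM across females 1 to 4 and 49.7, 44.9, 49.4 and 52.6 across males 1 to 4, a log2 fold change of 0.21 with overlapping sexes.

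The heat shock chaperones had lower means in females in 5 of 5, and 0 were called by either test after adjustment, with 3 at an unadjusted p under 0.05 in edgeR. *Hspa8* had 2884, 2922, 2745 and 2619 CPM across females 1 to 4 and 3308, 3199, 2945 and 3262 across males 1 to 4, without overlap but by a small margin (log2 fold change -0.19, SE 0.0772, with adjusted p = 0.222 by edgeR and 0.0558 by DESeq2). *Hspa1a*, whose promoter is shown above, ranged over 76.0 to 164 CPM among females and 135 to 223 among males (log2 fold change -0.57, adjusted p = 0.237 from edgeR). Its near copy *Hspa1b*, the small chaperone *Hspb1* and the co-chaperone *Dnajb1* had log2 fold changes of -0.89, -0.30 and -0.49. Of 12 other chaperones 11 had lower means in females (median log2 fold change -0.12), with 0 called by edgeR, 2 at an unadjusted p under 0.05 and 2 called by DESeq2, all higher in males. In 1 of them, *Hspa5*, the chaperone of the endoplasmic reticulum, every male was above every female (463 ± 45.1 against 649 ± 70.3 CPM, SD, n = 4 each, adjusted p = 0.0798 from edgeR). Over all genes 50.6% had lower means in females, and in 3.94% every male was above every female. In edgeR 10.7% were higher in males at an unadjusted p under 0.05, and DESeq2 called 3.48% as higher in males.

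The factors upstream of these genes and other activity genes were read from lists fixed by name. Of 11 upstream factors 0 were called by edgeR, and an unadjusted p under 0.05 was reached by 3 higher in females and 2 higher in males, where DESeq2 called 2 higher in females and 1 higher in males. *Elk1*, *Crtc1* and *Mef2d* had each female above each male, with log2 fold changes of 0.46, 0.27 and 0.27, and *Elk4* was higher in every male (-0.48). Of 15 other activity and stress genes 12 had lower means in females (median log2 fold change -0.39), with 0 called by edgeR, 6 higher in males and 2 higher in females at an unadjusted p under 0.05, and 2 higher in males and 1 higher in females called by DESeq2. *Rgs2* was higher in every female (0.32), and *Scg2* and *Rasd1* were higher in every male (-0.31 and -0.79). Over all genes 50.6% had lower means in females. At an unadjusted p under 0.05 in edgeR 10.7% were higher in males and 9.86% in females, and DESeq2 called 3.48% and 4.38%. Every male was above every female in 3.94%, and every female above every male in 6.48%.

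**Figure D3:**
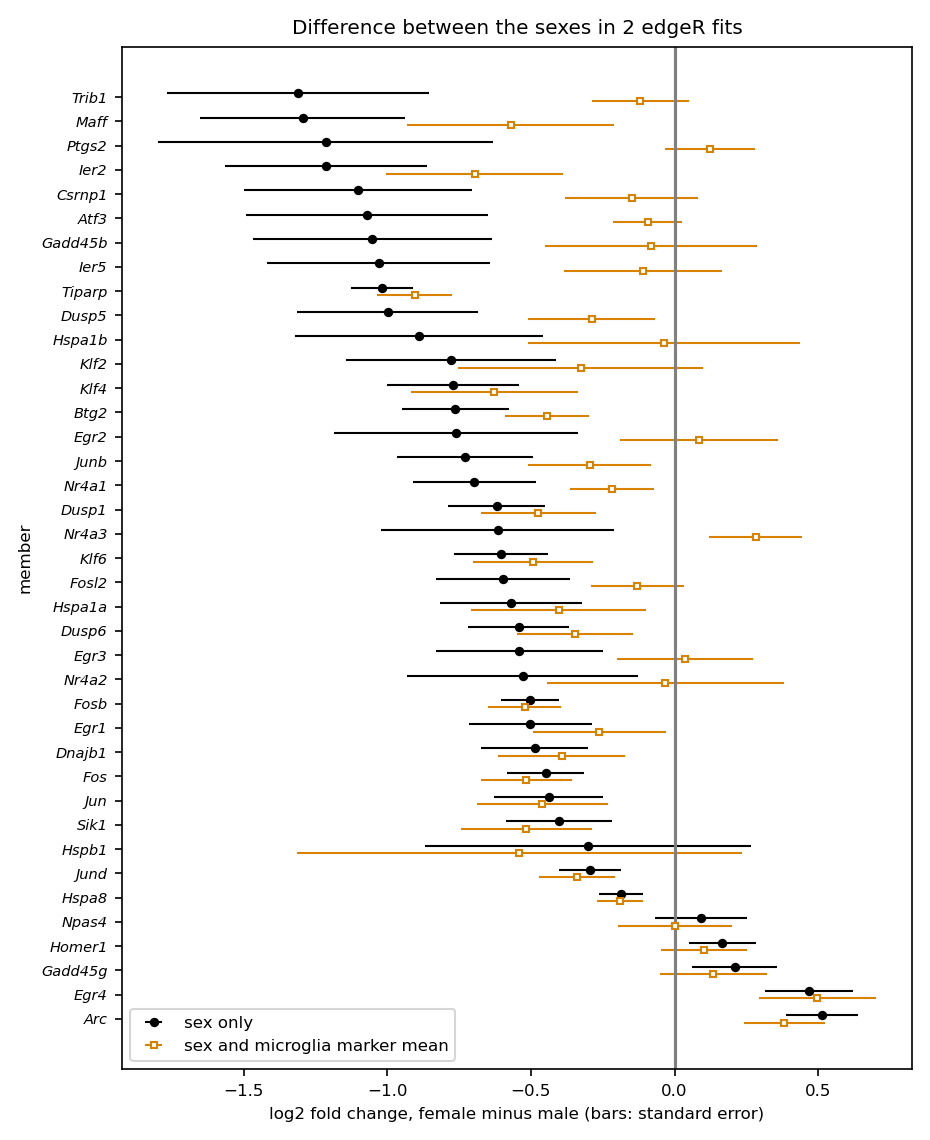
Log2 fold change of each tested member, female minus male, with its standard error, from the edgeR fit with sex alone (black) and with the microglia marker mean added (orange). With the covariate the median moves from -0.60 to -0.26, *Trib1*, *Atf3* and *Ptgs2* move close to 0, and *Fos*, *Fosb* and *Tiparp* stay near their first values.

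The members differed in how closely they moved with the microglia markers across the 8 mice. With the mean log2 CPM of the 6 markers, 10 members had a Pearson correlation that passed an exact permutation test adjusted over all genes, where 7.36% of all genes did so with a positive sign. They were *Fosl2*, *Atf3*, *Egr2*, *Nr4a1*, *Nr4a3*, *Ptgs2*, *Dusp5*, *Ier5*, *Trib1* and *Csrnp1*. A correlation above 0.8 was found for 16 members, where 10.9% of all genes had one. For *Atf3* r was 0.990 (exact permutation p = 2.48e-05, adjusted p = 0.00942) and Spearman's rho 1 (p = 4.96e-05, adjusted p = 0.0126). For *Ptgs2* r was 0.993 (exact permutation p = 9.92e-05, adjusted p = 0.0105) and rho 0.976 (p = 0.000397, adjusted p = 0.0214). With female 3 and male 4 left out, being farthest from the median marker level, r became 0.984 and 0.986, and within the sexes 0.985 and 0.991.

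For *Fos* r was 0.376 (exact permutation p = 0.338, adjusted p = 0.556) and rho 0.357 (p = 0.389, adjusted p = 0.610), and within the sexes r was -0.215. For *Fosb* r was 0.513 (exact permutation p = 0.178, adjusted p = 0.377) and rho 0.619 (p = 0.115, adjusted p = 0.298), with -0.0949 within the sexes. *Tiparp* lay between, with r of 0.705 (exact permutation p = 0.0455, adjusted p = 0.162) and rho of 0.810 (p = 0.0218, adjusted p = 0.114). Within the sexes r for *Tiparp* was 0.642. The neuron marker mean ran the other way, with a negative r for 35 of 39 members, where 48.2% of all genes had one. When the microglia mean was added to the fit 30 of 39 members still had a fold change below 0, with a median of -0.26, and with the neuron mean 25 did, with a median of -0.11, against 50.5% and 48.2% of all genes. Of the 14 members called by DESeq2, *Tiparp* and *Fosb* were also called with the microglia mean in that fit, and the other 12 were not (adjusted p of 0.0732 for *Fos*, the lowest of them, from DESeq2). Over all genes DESeq2 called 1052 without the microglia mean and 113 with it, so a loss of calls was not particular to the members. With the neuron mean the log2 fold change was -0.11 for *Nr4a1*, -0.15 for *Junb*, -0.34 for *Maff* and -0.28 for *Dusp5*. With 8 mice a covariate that differs between the sexes takes part of the sex difference with it, and the share of each member's RNA that came from microglia was not tested. The astrocyte and oligodendrocyte marker means were also higher in males on average (5.40 and 7.25 log2 CPM) than in females (4.45 and 6.35). Female 3 had the lowest astrocyte mean (3.13), as for microglia, and female 4 the lowest oligodendrocyte mean (5.54). How closely the members moved with the astrocyte and oligodendrocyte means was not tested.

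**Figure D4:**
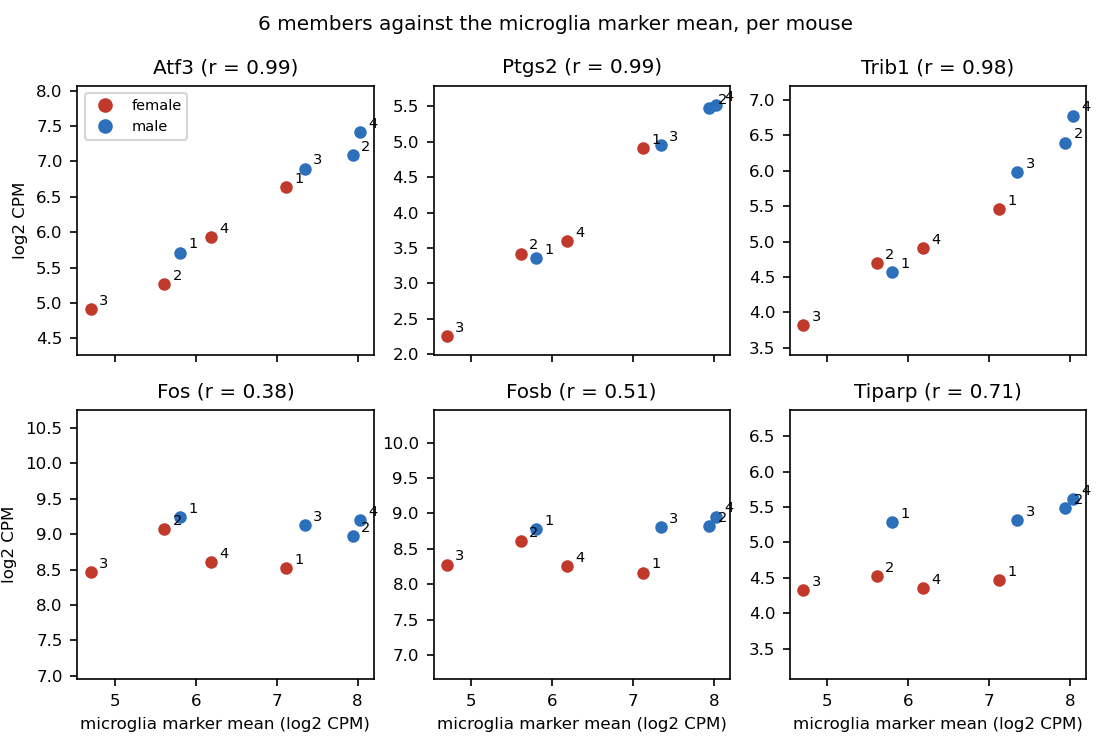
Log2 CPM of 6 members against the mean log2 CPM of the 6 microglia markers, 1 point per mouse with its replicate number, females in red and males in blue, with the same height of axis in each panel. *Atf3*, *Ptgs2* and *Trib1* lie along a line in both sexes (r = 0.990, 0.993 and 0.984), while for *Tiparp* every male lies above every female. The sexes share only part of the marker range, which is 4.70 to 7.12 in females and 5.80 to 8.03 in males.

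Among the transcripts of a gene, *Homer1* and *Fosb* have forms with opposed or distinct roles. The short form of *Homer1*, Homer1a, is induced by activity and uncouples the complexes that the long forms hold together. Protein-coding transcripts that end before the last exons of the long forms held 26.2%, 32.8%, 36.5% and 36.1% of *Homer1* coding TPM across females 1 to 4, against 35.6%, 49.2%, 38.9% and 47.0% across males 1 to 4. The means were 32.9% ± 4.74 and 42.7% ± 6.46 (SD, n = 4 each, 2-sided exact permutation p = 0.0857), and the sexes overlapped. By estimated counts, which are not scaled by length, the same transcripts held 55.6% in females and 63.3% in males on average. The long forms had 53.4 ± 6.44 TPM on average in females against 33.7 ± 5.32 in males (exact permutation p = 0.0286, adjusted over 7 tests of forms p = 0.05), and the short forms 26.6 ± 7.32 and 25.0 ± 3.80 TPM (exact permutation p = 0.771). An exact test of 4 mice against 4 cannot give a p below 0.0286. The split rests on estimates from single-end reads, and several long transcripts are incomplete models.

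The truncated form of *Fosb*, with 711 coding bases against 1014 in the full form, had 143, 182, 155 and 158 TPM across females 1 to 4 and 223, 219, 233 and 243 across males 1 to 4. The full form had 97.4 ± 12 TPM on average in females against 130 ± 6.28 in males (SD, n = 4 each). Both forms were higher in each male than in any female (exact permutation p = 0.0286 each, adjusted p = 0.05). The truncated form held 62.1% ± 1.67 of coding TPM in females and 63.3% ± 0.614 in males (exact permutation p = 0.171). By estimated counts, which are not scaled by length, it held 29.1% in females and 30.4% in males. Which form is the larger thus depends on the measure. The full form held 37.8% ± 1.55 of coding TPM in females and 35.8% ± 0.583 in males (exact permutation p = 0.0286, adjusted p = 0.05). This difference was not seen in the second block of values alone (exact permutation p = 0.971).

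**Figure D5:**
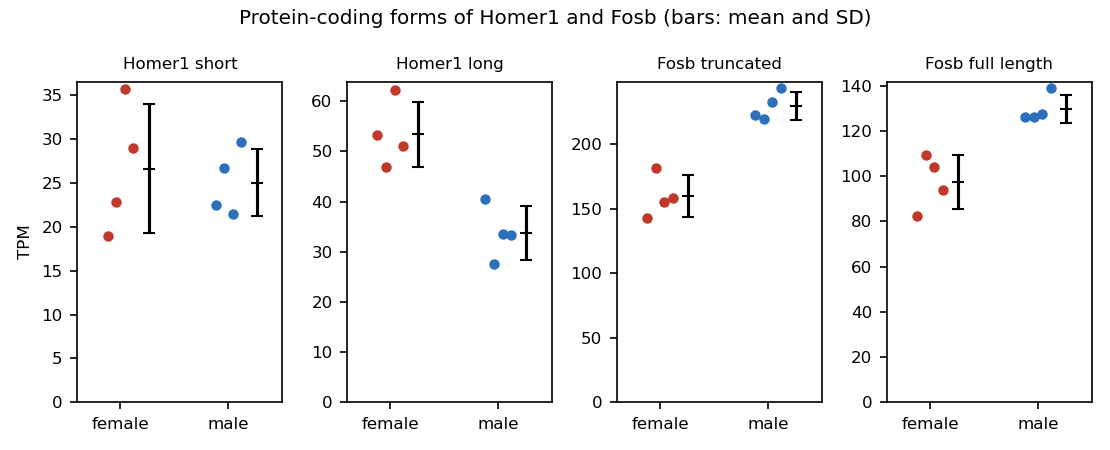
TPM of the short and long protein-coding forms of *Homer1* and of the truncated and full forms of *Fosb*, 1 point per mouse, with the mean and SD of each sex. The long *Homer1* forms, summed, are lower in males (33.7 against 53.4 TPM) while the short forms overlap, and both *Fosb* forms are higher in males. The most abundant long *Homer1* transcript has 180 codons, and the sexes overlap in the longest models.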

How the data were processed

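Flow-Seq libraries of 4 female and 4 male mice were analysed, grouped by the sex in the labels. The authors assigned single-end reads to the mouse transcriptome (mm10) with kallisto 0.46.2 and deposited estimated counts and TPM of 118489 transcripts, in 2 blocks per mouse whose origin is not given in the sources used here. The deposited counts, which need not be whole, were summed over blocks, joined to genes with GENCODE M21 and rounded, and TPM was averaged over blocks. Totals were 7.83 to 17.6, in units of 1000000 counts, and 3 counts corresponded to 0.148 to 0.458 CPM, a limit that covers counting error only. A strand setting is not given in the sources used here.

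Sexes were compared with edgeR 4.0.16 (TMM factors, its default low-count filter, quasi-likelihood F test, threshold 0.05 after Benjamini-Hochberg adjustment over all tested genes), with DESeq2 1.42.0 as the alternative, in R 4.3.3. Fold changes are female against male. Log2 CPM used a prior count of 2. Nothing in the labels says more of the replicates than that they are separate mice. Python 3.11.15 with scipy 1.17.1 gave the exact permutation tests. The fits were tested on simulated data. Full statistics are given for members past the threshold in either tool or whose sexes did not overlap. The members and lists were chosen with earlier results of these data known. Motifs were searched as 8 strings, to which 2 shorter ones were added after the promoter sequences had been read. Alternatives were another normalization, filters, a length offset, a replicate block, each block, omission of *Lars2*, marker covariates and omission of each mouse. The fits with DESeq2 and the microglia covariate, and with both covariates, were chosen after seeing the data.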

Additional observations from a re-analysis of the deposited data

Results flagged for a closer look

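Among 16 members followed closely, each sex was examined for a mouse that stood apart from the other 3, and 2 of 32 groups had one, where chance flags about 1 in 20. *Arc* in female 2 was at 174 CPM, against 129 to 136 CPM in the other females. *Junb* in female 3 was at 127 CPM, against 176 to 186 CPM in the other females.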

How the results depend on the processing

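The 24 genes called by edgeR became 1052 with DESeq2, 113 with DESeq2 and the microglia covariate, 13 with the length offset, 13 with the microglia covariate, 6 with the neuron covariate and 1 with a replicate block, and 8 to 415 when single mice were left out (415 without female 1, 411 without male 1, 8 without male 3). The 1 member called became 14 with DESeq2, 2 with DESeq2 and the microglia covariate, 0 with the neuron covariate, 0 with both covariates and 0 with a replicate block, and 0 to 7 when single mice were left out (7 without male 1, 0 without female 4). No pairing by replicate number was seen over all genes. Same-numbered females and males correlated at -0.396, -0.156, 0.0356 and 0.0719, and not every mouse correlated best with its own number. Since the mice also differed in markers of other cell types, these correlations cannot tell whether same-numbered mice were handled together. The difference in the *Homer1* short share, -9.79 percentage points (exact permutation p = 0.0857), was -7.52 in the first block alone (exact permutation p = 0.2) and -11.6 in the second (exact permutation p = 0.0286), and -12.1 to -7.57 without single mice, reaching p = 0.0286 in the exact permutation test without male 1. *Csrnp1* turned to a log2 fold change of 0.0533 with the neuron covariate and of 0.0200 with both covariates. The causes were not tested. The other 15 members followed closely kept their direction in the alternatives run, but of all 16 the fold change shrank by over 1.5 times or turned for 8 with the microglia covariate, for 11 with the neuron covariate, for 11 with both and, in *Junb* (-0.47), without male 4. Depth limits *Fosl1* and *Hspb1*, with at most 18 and 56 counts in a mouse.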
